A study of Mus musculus with 3 samples.

Results

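Beta-catenin deletion was examined by comparing 1 RNA sequencing library of calvarial mesenchyme that carried a Cre-mediated deletion of the beta-catenin gene with 1 control library. The comparison was made over all genes whose mean over the 3 libraries of the series was at least 5 CPM, the count scaled to a common library size, which 12127 of the 43280 listed genes reached; these are the measured genes below. All samples were mouse skeletal mesenchyme taken at E15.5 and described as primary cells, and polyA RNA was sequenced. The control was beta-catenin fx/fx, with both copies of Ctnnb1 flanked for deletion and no Cre. The deletion library, called cKO here, was beta-catenin fx/fx; Dermo1-Cre. The remaining library was beta-catenin fx/dm with Dermo1-Cre (dTF-cKO). It entered the comparison only through the scaling factors and the mean that set the expression limit. Some of its values are given beside the others for pseudogenes, epidermal, muscle and Hox genes. Dermo1-Cre is expressed from the Twist2 locus, in precursors of bone, cartilage and dermis, so cells outside that lineage keep their beta-catenin. The labels do not say how many embryos made each library, and since each genotype is represented by 1 library, no difference can be set against replicates and no test was made.

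Beta-catenin has a double role in the cell. It ties cadherins to the actin cytoskeleton at adherens junctions, and it carries the canonical Wnt signal to TCF/LEF factors in the nucleus, where it acts as a coactivator; without Wnt it is marked for degradation by a complex of Axin, APC, GSK3 and casein kinase 1. The skull vault forms by intramembranous ossification, in which mesenchyme condenses, turns on Runx2 and then Sp7, and deposits a type I collagen matrix that is later mineralised. In this mesenchyme beta-catenin is known as a factor that favours the osteoblast over the chondrocyte fate.

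The control library held 3634819 counts and the cKO library 2678457, so that 3 counts, taken as the limit for a gene with none, corresponded to 0.839 CPM in the control and 1.06 CPM in the cKO. CPM values below are scaled with TMM factors, log2 differences are cKO minus control with a prior count of 2, and pairs of values give the control first. The range after a fold is its exact 95% interval from counting alone; the reads carry no molecular identifiers and may repeat a molecule, so these intervals leave out amplification and all variation between embryos. The libraries also differed in their sex-linked genes, with 1233 and 0 counts of Xist and 0 and 362 counts of 4 Y-linked genes, and genotype and sex cannot be told apart. Of 341 measured protein-coding genes on the X chromosome, 28 were higher and 14 lower by 2-fold or more, and the median log2 difference was 0.04. In bulk RNA, fewer cells of a type and less RNA per cell cannot be told apart.

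At a limit of 2-fold, 1172 measured genes (9.66%) were higher and 822 (6.78%) lower in the cKO, together 16.4% of those measured. The counting interval left out a ratio of 1 for 1152 of the higher and 812 of the lower genes. Most genes lay close together: the median log2 difference was 0.06, its quartiles were -0.29 and 0.42, and 68.7% of the genes were within 1.5-fold. The higher side reached further, with 322 genes at least 10-fold higher and 17 at least 10-fold lower. Of the 1172 higher genes, 574 lay below the expression limit in the control. Of the 822 lower genes, 309 lay below it in the cKO. Such genes passed the limit on the mean only through other libraries, and the part of this in the longer upper side was not tested. When the scale was set instead by 60 genes of dermal fibroblasts, meninges, mural cells and endothelium, whose median log2 difference was 0.38, the counts became 795 higher and 1499 lower, and the share of the called genes that were higher went from 58.8% to 34.7%. Among all CPM lost between the libraries, 50.5% came from the pair Col1a1 and Col1a2, which encode type I collagen. Predicted gene models and clone names were left out of the rankings that follow. Genes with larger differences than some of those listed can therefore be missing. The 15 highest genes by log2 difference were nearly all genes of the outer epidermis, keratin-associated proteins or epithelial enzymes (Dmkn, Krt77, Krt1, Krt10, Hrnr, Calm4, Krtap15, Lor, Krtdap, Psapl1, Krtap13, Dsg1a, Ly6d, Aox4 and Pla2g2f). The 15 lowest were Xist, Ugt2a1, Myh7, Atp6v0d2, Fabp7, Fabp3, Panx3, Myo18b, Tceal7, Chac1, Ibsp, Acta1, Trim66, mt-Nd6 and Mmp9, among which are genes of muscle, osteoclasts and bone.

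**Figure D1:**
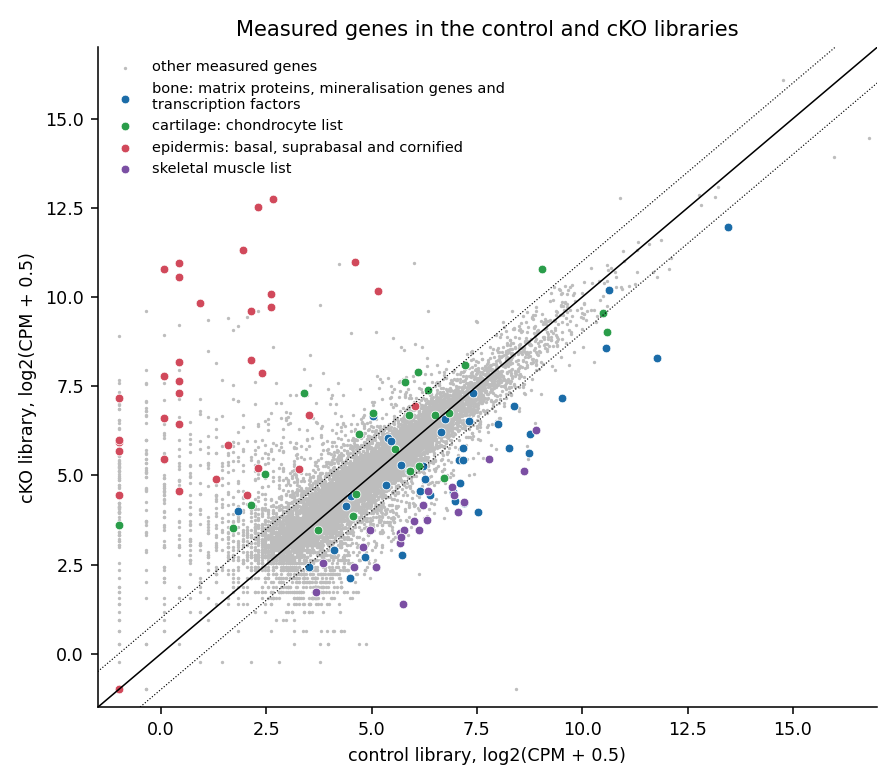
Each point is 1 measured gene, with log2(CPM + 0.5) in the control on the x axis and in the cKO on the y axis; the solid line marks equality and the dotted lines 2-fold, and colours mark the bone, chondrocyte, epidermal and skeletal muscle lists. The epidermal genes lie far above the line, the muscle genes below it in all 23 measured cases, and the bone genes mostly below it.

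Processed pseudogenes, which are retrotransposed copies of spliced messenger RNAs and mostly derive from highly expressed genes, made up a large part of the lower genes. Of 470 measured processed pseudogenes in GENCODE vM21, 321 (68.3%) were at least 2-fold lower in the cKO and 4 higher, with a median log2 difference of -1.38 and quartiles of -1.80 and -0.83. They accounted for 39.1% of the 822 lower genes. Their share of all counts was 1.79% in the control and 0.825% in the cKO. In the dTF-cKO library, which shares the control, 65 of the same 470 were lower and 57 higher against the control, with a median of -0.09 and a share of counts of 1.84%. Protein-coding genes differed from this: of 11047 measured, 1108 were higher and 428 (3.87%) lower by that limit, and the median was 0.08.

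For 125 of these copies a measured parent gene could be named from the symbol. The copies had a median log2 difference of -1.36 and their 66 parents one of 0.36. Of the 125, 119 lay below their parent and 91 were at least 2-fold lower, while 0 of the parents were. Ribosomal protein genes, which build the cytosolic ribosome, also differed from copies among them, though the genes given here are not parent and copy of each other. Rplp0 had 9007 and 7286 counts (2519 and 2577 CPM) and Rpl4 5565 and 4861 counts (1557 and 1719.5 CPM), close to equal between the libraries. The near-identical copies Rps3a2 and Rps12l1 had 380 and 76 counts and 232 and 50 counts, 3.95-fold lower (3.08 to 5.13) and 3.67-fold lower (2.69 to 5.09). Reads that fit both a gene and its copy can be assigned to either one, so values of such pairs are uncertain, and whether read length or alignment differed between the libraries was not tested. The lower genes discussed below are protein coding unless named otherwise.

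**Figure D2:**
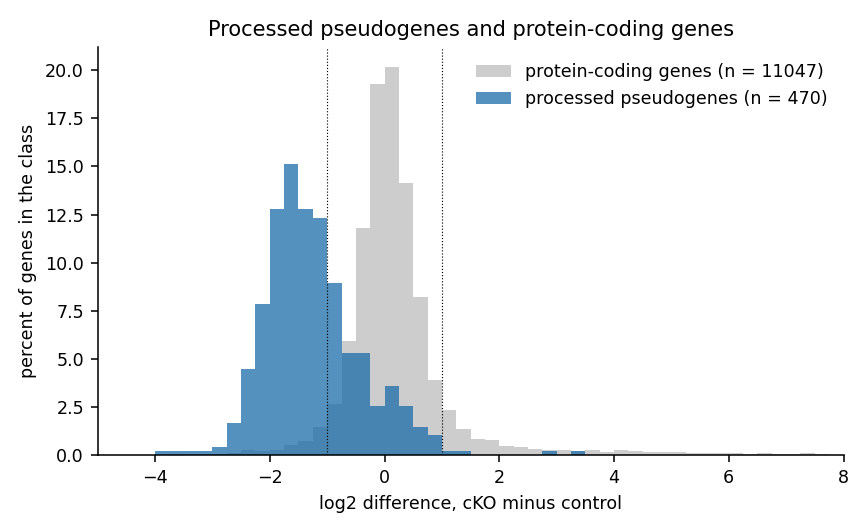
The x axis gives the log2 difference, cKO minus control, in bins, and the y axis the percent of genes in each class, for 11047 protein-coding genes (grey) and 470 processed pseudogenes (blue); dotted lines mark 2-fold, and values beyond the axis are not drawn. The pseudogenes centre near their median of -1.38, with 68.3% at least 2-fold lower, whereas the coding genes centre near 0.08.

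Ctnnb1 itself, on chromosome 9 at 120929216 to 120960507 (mm10), had 3669 counts in the control against 2106 in the cKO (1026 and 745 CPM), which is 1.38-fold lower (1.31 to 1.45). Only 1 count is given per gene, and how exons were counted is not stated. Transcripts that lost the flanked exons and transcripts of cells without Cre therefore cannot be told apart. Twist2, the gene whose locus drives the Cre, had 21 and 80 counts (5.87 and 28.3 CPM) and was 4.82-fold higher (2.95 to 8.2). The cKO carries the Cre at this locus and the control does not. Reads of the altered locus and of the intact Twist2 gene therefore cannot be told apart, which holds wherever Twist2 is counted below. The related mesenchymal factors Twist1 (165 and 106 CPM), Snai1 (50.9 and 40.7 CPM) and Snai2 (29.7 and 28.7 CPM) were within 2-fold, and Twist2 was the 1 gene called among the 8 Twist, Snail and Zeb factors.

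Genes of the canonical Wnt pathway lay on both sides. Among 24 measured canonical target genes, 4 were higher by at least 2-fold and 4 lower; the median was 0.22 and turned to -0.16 on the scale set by the 60 stromal genes (the stromal scale below). The targets that were lower were Tcf7, Wif1, Dkk1 and Fgf18. Fgf18, a growth factor for osteogenic mesenchyme, had 43 counts in the control against 13 in the cKO, 2.62-fold lower (1.38 to 5.3). Ccnd1, the cyclin D1 gene, had 885 and 389 counts (248 and 138 CPM) and stayed short of the 2-fold limit at 1.8-fold lower (1.59 to 2.03). Nkd1, a feedback inhibitor, differed little, at 49.2 and 41.7 CPM. Axin2, the scaffold induced by the pathway, had 35 and 50.6 CPM and was 1.45-fold higher (1.13 to 1.85). The other side of the list held Rnf43 (13 and 51 counts), which removes Frizzled receptors from the surface, together with Apcdd1, Lef1 and Twist2.

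Ligands were the part of the pathway with most higher genes. Of 14 measured Wnt ligands 7 were higher by at least 2-fold and 0 lower, with a median of 1.17. The summed counts of all 19 listed ligands were 672 and 1457. Of these 19, 10 reached 5 CPM in the control and 14 in the cKO. Some measured ligands thus passed the expression limit only through libraries other than the control. That limit favours higher calls, so the tally and the median depend on it in part. Wnt3 had 0 and 47 counts and was at least 19.8-fold higher. Wnt10a, a ligand of ectodermal appendages, had 8 and 48 counts (7.59-fold higher (3.56 to 18.6)). Wnt6, another ligand of surface ectoderm, had 26 and 85 counts (4.13-fold higher (2.64 to 6.69)). The ligands of mesenchyme were less different: Wnt5a, which mostly signals without beta-catenin, had 37.8 and 45.6 CPM, and Wnt11 had 22.4 and 32.9 CPM. The higher ligands were found in the library that also held more epidermal RNA, described below, and the part of that RNA in them was not tested. Among 21 receptors and co-receptors, Fzd6, Fzd10 and Rnf43 were at least 2-fold higher and Ror2, a receptor for Wnt5a, lower (77.5 and 36.8 CPM; 2.11-fold lower (1.68 to 2.66)). The co-receptors Lrp5 (297 and 198 CPM) and Lrp6 (151 and 135 CPM) and the mesenchymal receptor Fzd2 (167 and 106 CPM) stayed within 2-fold.

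Secreted modulators lay mostly on the lower side, with 6 of 13 at least 2-fold lower, 1 higher and a median of -0.61. Dkk3, of the Dickkopf family, had 775 counts in the control against 238 in the cKO, 2.57-fold lower (2.22 to 2.99). Frzb, a secreted Frizzled-like decoy found in early cartilage and perichondrium, had 139 and 35 counts and was 3.14-fold lower (2.15 to 4.69). Sfrp4, a decoy of the same family, had few counts (44 and 9 counts; 3.87-fold lower (1.86 to 9.01)). Sostdc1, which binds Lrp receptors and BMPs and is made by skin appendages, was the exception at 42 and 88 counts (2.65-fold higher (1.81 to 3.92)). None of the 20 genes of the destruction complex and of beta-catenin turnover reached 2-fold in either direction, and their median was -0.03. Apc had 90.3 and 81.4 CPM, Axin1 63.2 and 64 CPM and Csnk1a1, the casein kinase that first phosphorylates beta-catenin, 196 and 307 CPM. Of 20 nuclear factors and partners, Tcf7 was lower (123 and 31.5 CPM) and Lef1 higher (11.2 and 23.7 CPM), while Tcf7l1 (95.4 and 77.8 CPM) and Tcf7l2 (31 and 26.9 CPM) were within 2-fold.

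**Figure D3:**
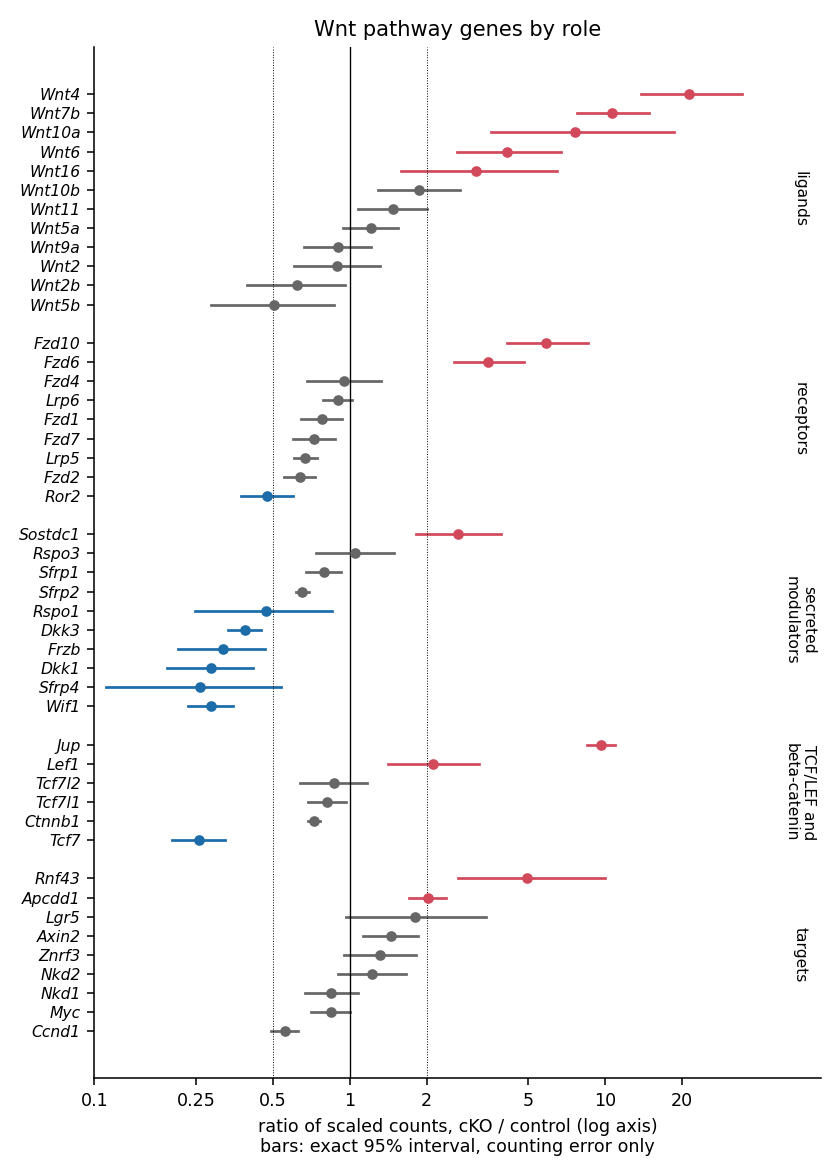
Wnt pathway genes by role, with the ratio of scaled counts, cKO over control, on a log axis; points are ratios, bars exact 95% intervals from counting, dotted lines 2-fold in either direction, red at least 2-fold higher, blue at least 2-fold lower, and ligands with no count in the control are not drawn. The ligands hold no blue point, with 7 of 14 measured higher and 0 lower, and the secreted modulators hold the most blue points, with 6 of 13 lower.

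At the junctions, 13 catenins and their armadillo relatives were measured, of which 3 were higher and 1 lower. Ctnna1, the alpha-catenin that binds actin, had 226 and 274 CPM, and Ctnnd1, the p120 catenin, 24.6 and 36.4 CPM. The higher members belong to desmosomes, the junctions that anchor keratin: Jup (plakoglobin), Pkp1 with 9 and 1937 counts (272-fold higher (143 to 596)) and Pkp3 with 3 and 696 counts (293-fold higher (100 to 1426)). Ctnnd2, best known from neurons, was lower with 36 and 12 counts (2.37-fold lower (1.21 to 5.01)). Of 9 measured cadherins, Cdh11, the cadherin of osteoblasts and mesenchyme, had 663 and 493 CPM and was 1.34-fold lower (1.26 to 1.44). Cdh15, the M-cadherin of muscle, had 103 and 19 counts and was 4.29-fold lower (2.61 to 7.41). The endothelial Cdh5 (247 and 278 CPM) and the placental type Cdh3 (59.6 and 66.5 CPM) differed by less than 1.5-fold. Cdh2 was lower and Cdh1 higher, at 170.3 and 44.6 CPM and 36.4 and 207 CPM.

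Genes of the osteoblast lay mostly on the lower side. Of 12 measured osteoblast transcription factors 5 were at least 2-fold lower and 0 higher, with a median of -0.86, and 11 of 12 had a difference below 0. Dlx6, a homeobox factor whose gene neighbours Dlx5, had 78 and 11 counts and was 5.61-fold lower (2.97 to 11.7). Mef2c, which acts in osteoblasts, hypertrophic cartilage and muscle, had 514 and 152 counts (2.67-fold lower (2.23 to 3.23)). Dlx5 (58.5 and 34.7 CPM) and Dlx3 (73.6 and 38.2 CPM) were lower by less than 2-fold. Atf4, which osteoblasts use to take up and use amino acids, had 169 and 158 CPM and lay close to equality. The gene above 0 was Bhlhe40 (41.4 and 65.4 CPM, outside the rule for naming genes and named after its value was seen). Runx2, the master factor of the lineage, had 143 and 42.8 CPM.

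Bone matrix proteins other than collagen had 10 of 13 genes at least 2-fold lower and 1 higher, with a median of -1.49, and 12 of 13 below 0. Sparc, the collagen-binding osteonectin, had 40557 counts in the control against 11382 in the cKO (11345 and 4026 CPM), 2.82-fold lower (2.76 to 2.88). Spp1, the acidic phosphoprotein osteopontin, had 5443 and 1066 counts and was 4.04-fold lower (3.78 to 4.32). Dmp1, an acidic protein of late osteoblasts and osteocytes, had 922 and 244 counts and was 2.99-fold lower (2.59 to 3.46). Dmp1, Ibsp, Mepe and Spp1 stand next to each other on chromosome 5 between 104202613 and 104441050, and Mepe, below the expression limit, had 6 and 0 counts. All 4 genes of this stretch thus had fewer counts in the cKO library. Ifitm5, a membrane protein of the mineralising osteoblast, had 489 and 76 counts (5.09-fold lower (3.99 to 6.57)), and Omd, the osteoblast proteoglycan osteomodulin, 101 and 17 counts (4.7-fold lower (2.79 to 8.38)). Bgn, a proteoglycan that many connective tissues make, was only 1.36-fold lower (1.3 to 1.42). The osteocalcin genes went both ways: Bglap (60 and 20 counts) and Bglap2 (39 and 14 counts) were lower and Bglap3 (11 and 44 counts) higher. These 3 are neighbours on chromosome 3 and near-identical in sequence, so reads could be split among them and their separate values are uncertain.

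Mineralisation genes were lower in the same measure, with 11 of 17 at least 2-fold lower and a median of -1.63. Alpl, the phosphatase that removes the inhibitor pyrophosphate (chromosome 4 at 137741733 to 137796384), had 2612 counts in the control against 406 in the cKO (731 and 144 CPM) and was 5.09-fold lower (4.58 to 5.66). Slc13a5, a citrate transporter of osteoblasts, had 522 and 52 counts and was 7.94-fold lower (5.96 to 10.8). Slc36a2, an amino acid transporter, had 188 and 18 counts and was 8.26-fold lower (5.08 to 14.2). Slc8a3, a sodium-calcium exchanger, had 435 and 64 counts (5.37-fold lower (4.13 to 7.1)), Phex, an endopeptidase of phosphate control, 252 and 66 counts (3.02-fold lower (2.29 to 4.02)), and Enpp1, which makes pyrophosphate, 274 and 83 counts (2.61-fold lower (2.04 to 3.38)). Alpl and Enpp1 act in opposite directions on pyrophosphate and both were lower. Ank, which exports pyrophosphate, was close to equal at 106 and 95.5 CPM. The single higher gene was Slc26a2, a sulphate transporter that cartilage depends on, at 116 and 285 counts (3.11-fold higher (2.5 to 3.89)), a gene outside the rule.

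**Figure D4:**
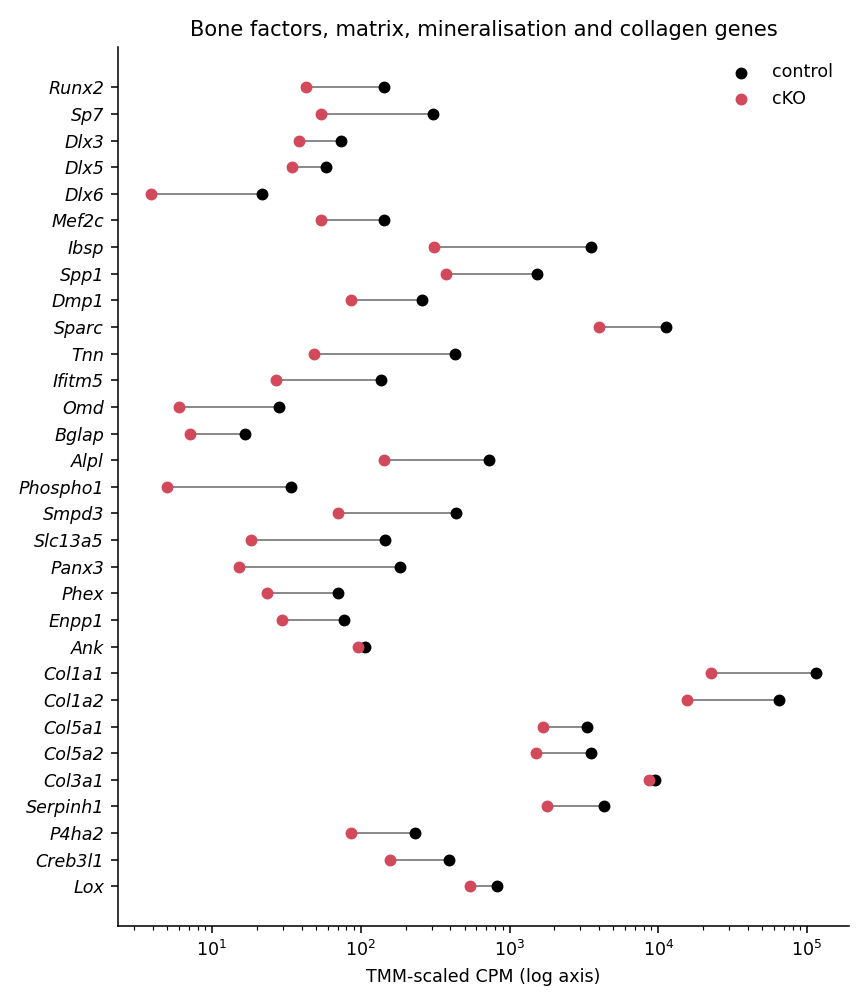
TMM-scaled CPM on a log axis in the control (black) and the cKO (red) for bone transcription factors, matrix proteins, mineralisation genes, fibrillar collagens and collagen-processing genes; each point is 1 library and there are no error bars because each genotype has 1 library. Red lies left of black for every gene drawn, widest for Ibsp, Panx3 and Tnn and nearly touching for Ank and Col3a1. The genes drawn are a selection from these groups. Members that were higher in the cKO, among them Bglap3, Slc26a2, Bhlhe40 and Col2a1, are not drawn.

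Signals and receptors of bone followed, with 7 of 15 genes lower, 1 higher and a median of -0.95. The higher gene was Kitl, the ligand of the Kit receptor, with 71 and 117 counts (2.08-fold higher (1.54 to 2.84)), which is outside the rule and was named after its value was seen. Bmp3, the osteoblast BMP that restrains bone mass, had 211 and 50 counts (3.34-fold lower (2.44 to 4.64)). Pth1r, the receptor for parathyroid hormone, had 944 and 276 counts (2.7-fold lower (2.36 to 3.1)), and Vdr, the vitamin D receptor, 184 and 54 counts (2.69-fold lower (1.98 to 3.72)). The 7 measured osteocyte genes split: Dmp1 and Phex were lower and the other 5 were within 2-fold, with a median over the list of 0.05 (-0.33 on the stromal scale). Among 24 genes of osteoprogenitors and suture mesenchyme 5 were at least 2-fold lower and 1 higher, with a median of -0.56. Among the lower ones were the homeobox or zinc finger factors En1 (124 and 33 counts; 2.97-fold lower (2.01 to 4.5)), Prrx2 (190 and 61 counts; 2.46-fold lower (1.84 to 3.34)), Six2 and Gli1. Prrx1 (321 and 212 CPM), Pdgfra (339 and 219.7 CPM) and Foxc1 (52 and 58.7 CPM), which mark the mesenchyme more widely, stayed within 2-fold. The higher gene, Tfap2a (10 and 118 counts), is made by neural crest and by surface ectoderm. The medians of the bone lists thus ran from -1.63 for mineralisation genes over -0.56 for progenitor genes to 0.05 for the measured osteocyte genes. The osteocyte median leaves out Mepe, Sost, Fgf23 and Tnfsf11, which were below the expression limit. No test of the differences between these medians can be made with 1 library each.

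The promoters of these genes are shown because Runx2, which was lower, is the factor whose binding element osteoblast genes are known for. In the 250 bases before the RefSeq start (GRCm38.p6, the assembly named mm10), the RUNX letters TGTGGTT or, on the other strand, AACCACA were present in 5 of 56 genes of the bone lists with a listed promoter (8.93%), and in 315 of all 8796 measured genes with one (3.58%). The share was 4.1% of 317 genes at least 2-fold lower and 4.67% of 835 genes at least 2-fold higher. The 5 were Dmp1, Runx2, Spp1 and Mmp13, all at least 2-fold lower, and Slc20a1, a phosphate transporter that was close to equal at 22.4 and 20.9 CPM. Those of Dmp1, Spp1, Mmp13 and Slc20a1 are printed 5′ to 3′ on the strand of the gene, with the matched letters in capitals. They cover chr5:104202367-104202616 (Dmp1), chr5:104434861-104435110 (Spp1), chr9:7272264-7272513 (Mmp13) and chr2:129198523-129198772 (Slc20a1), all on the plus strand.
Dmp1: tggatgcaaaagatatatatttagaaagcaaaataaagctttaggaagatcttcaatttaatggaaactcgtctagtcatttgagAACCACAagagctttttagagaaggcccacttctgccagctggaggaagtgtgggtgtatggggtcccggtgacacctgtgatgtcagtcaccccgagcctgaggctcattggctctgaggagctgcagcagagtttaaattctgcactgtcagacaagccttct
Spp1: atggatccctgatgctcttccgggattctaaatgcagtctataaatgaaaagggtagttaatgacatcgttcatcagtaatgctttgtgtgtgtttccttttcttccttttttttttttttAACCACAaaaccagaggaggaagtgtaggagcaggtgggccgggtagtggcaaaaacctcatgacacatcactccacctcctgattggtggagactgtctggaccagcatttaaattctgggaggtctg
Mmp13: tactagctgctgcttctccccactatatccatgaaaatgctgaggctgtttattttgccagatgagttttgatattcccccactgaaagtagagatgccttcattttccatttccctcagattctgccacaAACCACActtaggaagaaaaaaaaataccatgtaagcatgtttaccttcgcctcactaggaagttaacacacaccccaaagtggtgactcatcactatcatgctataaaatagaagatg
Slc20a1: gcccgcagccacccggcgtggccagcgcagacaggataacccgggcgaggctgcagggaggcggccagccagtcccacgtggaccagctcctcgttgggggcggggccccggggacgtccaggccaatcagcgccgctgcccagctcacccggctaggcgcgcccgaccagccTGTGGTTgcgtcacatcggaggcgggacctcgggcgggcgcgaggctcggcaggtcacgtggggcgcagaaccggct
The match lay 165 bases before the start in Dmp1, 129 in Spp1, 119 in Mmp13, 77 in Slc20a1 and, in a promoter not shown, 81 in Runx2. It read AACCACA in the lower genes and TGTGGTT in Slc20a1. The TCF/LEF letters CTTTGAT or ATCAAAG, searched in the same way, were present in 4 of the same 56 bone promoters (7.14%), against 2.73% of all promoters, in 2.99% of those of higher and 3.15% of those of lower genes, and in 1 of 15 canonical Wnt targets with a listed promoter (Tnfrsf19, 163 and 136 CPM). Slc20a1 and Tnfrsf19 are outside the rule for naming genes and were named for these letters after their values were seen. A match of letters describes the sequence and is not a measured binding site.

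Collagen took the largest part of the control library. The 11 fibrillar collagen genes held 19.6% of control counts and 5.64% of cKO counts, with 5 at least 2-fold lower and 1 higher. Col1a1 (chromosome 11 at 94936224 to 94953042) had 409783 counts in the control against 64161 in the cKO and Col1a2 (chromosome 6 at 4504814 to 4541544) 230100 and 44103 counts; they were 5.05-fold lower (5.01 to 5.09) and 4.13-fold lower (4.08 to 4.17). Col24a1, a minor fibrillar collagen of developing bone, had 567 and 90 counts and was 4.98-fold lower (3.98 to 6.29). Col5a2, which with Col5a1 starts fibril assembly, had 12530 and 4275 counts (2.32-fold lower (2.24 to 2.4)), and Col11a2 5479 and 1455 counts (2.98-fold lower (2.81 to 3.16)). Col3a1, the fibrillar collagen of soft connective tissue, did not share in this and had 34177 and 24522 counts (1.1-fold lower (1.08 to 1.12)). Col2a1 of cartilage was the 1 higher member (3.34-fold higher (3.17 to 3.52)).

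Among 26 other collagens 7 were higher and 2 lower. The lower were Col22a1, found at tissue junctions, with 1674 and 251 counts (5.27-fold lower (4.62 to 6.05)), and the membrane collagen Col13a1 with 194 and 30 counts (5.11-fold lower (3.47 to 7.78)). The higher were cartilage type IX chains and chains of epithelial basement membranes: Col17a1, of hemidesmosomes, had 14 and 849 counts (76.7-fold higher (45.5 to 141)), Col7a1, of anchoring fibrils, 15 and 359 counts (30.3-fold higher (18.1 to 54.6)) and Col4a6 17 and 71 counts (5.28-fold higher (3.08 to 9.57)). Laminin chains behaved likewise, with 5 of 11 higher and 0 lower: Lamb3 had 7 and 83 counts and Lama3 34 and 159 counts, both chains of the laminin beneath the epidermis. Lamb1 (422 and 339 CPM) and Lamc1 (394 and 356 CPM), of most basement membranes, were within 2-fold. Of 21 integrins 3 were higher and 1 lower: Itgb4, the hemidesmosome partner, was 9.53-fold higher (6.81 to 13.7) with 39 and 294 counts, and Itga10, a collagen receptor of chondrocytes and the osteogenic layer, 3.5-fold lower (2.76 to 4.48) with 376 and 85 counts.

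The genes that fold, secrete and cross-link collagen were lower as a group by a smaller amount. Of 34 measured, 8 were at least 2-fold lower, 0 higher, 31 below 0, and the median was -0.72. Serpinh1, the collagen chaperone of the endoplasmic reticulum, had 15333 counts in the control against 5022 in the cKO (4289 and 1776 CPM), 2.41-fold lower (2.34 to 2.49). P4ha2, a proline hydroxylase subunit, had 826 and 243 counts (2.69-fold lower (2.33 to 3.11)). Pcolce, which helps to cut the procollagen end, had 3187 and 993 counts (2.54-fold lower (2.36 to 2.73)). Fkbp10, a peptidyl-prolyl isomerase for procollagen, had 2601 and 898 counts (2.29-fold lower (2.12 to 2.47)), and Creb3l1, the transcription factor that turns on collagen secretion genes in osteoblasts, 1406 and 447 counts (2.49-fold lower (2.23 to 2.77)). Loxl4, of the cross-linking lysyl oxidases, lay lowest at 317 and 42 counts (5.97-fold lower (4.32 to 8.44)), while Lox itself was 1.53-fold lower (1.44 to 1.63). General chaperones of the same compartment were nearer to equality: 0 of 18 genes of the unfolded protein response reached 2-fold, with Hspa5 at 636 and 513 CPM and Canx at 309.9 and 314 CPM.

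Matricellular and elastic fibre genes had 10 of 32 lower, 1 higher (Comp, of cartilage) and a median of -0.57. Tnc, a tenascin of condensing skeletal mesenchyme and tendon, had 4481 counts in the control against 816 in the cKO (4.34-fold lower (4.03 to 4.68)). Spon1 had 375 and 102 counts (2.91-fold lower (2.33 to 3.66)) and Thbs4, of tendon and muscle attachments, 135 and 33 counts (3.23-fold lower (2.2 to 4.89)). Fn1, fibronectin, had 15737 and 6240 counts and was 1.99-fold lower (1.94 to 2.05), at the edge of the limit. Postn, the periostin of periosteum and dermis, was 1.59-fold lower (1.51 to 1.67). The small leucine-rich proteoglycans were nearer to equality, with 1 of 12 lower (Omd): Dcn had 788 and 685 CPM and Lum 547 and 457 CPM. Of 20 proteases and inhibitors 5 were lower (Mmp9, Mmp13, Ctsk, Mmp23 and Timp1) and 0 higher, Timp1 with 298 and 77 counts (3.06-fold lower (2.37 to 3.98)), while Mmp2 and Mmp14, proteases of fibroblasts, were 1.55-fold lower (1.44 to 1.66) and 1.36-fold lower (1.26 to 1.46).

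Cartilage genes lay on both sides. Of 24 measured chondrocyte genes 11 were higher by the 2-fold limit and 2 lower (Itga10 and Col11a2); the median was 0.84. Matn3, a matrilin of cartilage matrix, had 14 and 50 counts (4.52-fold higher (2.46 to 8.85)), and Col9a3, a chain of type IX collagen, 242 and 672 counts (3.51-fold higher (3.03 to 4.08)). Hapln1, the link protein of aggrecan, had 115 and 305 counts (3.35-fold higher (2.7 to 4.19)); it is outside the rule and was picked after its value was seen. The factors that specify the cell type were not higher by 2-fold: Sox9 had 46.4 and 52.7 CPM, Sox5 12.9 and 10.6 CPM and Sox6 68.8 and 38.2 CPM. Higher matrix genes thus stood beside a nearly equal Sox9. The list as a whole held 0.447% of control and 0.51% of cKO counts; Col11a1 (1450.1 and 750.3 CPM) and Col11a2, which bone also makes, are among its members.

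The hypertrophic list, of cartilage that enlarges before bone replaces it, had 9 of 11 lower and 0 higher, with a median of -2.34. It overlaps with the osteoblast lists in Ibsp, Sp7, Alpl, Spp1, Panx3, Mmp13, Pth1r and Mef2c, so it is no separate measurement of them. Ihh, the hedgehog ligand of prehypertrophic cells, had 57 counts in the control against 7 in the cKO (6.44-fold lower (2.93 to 16.7)). Col10a1, the defining collagen of hypertrophic cartilage, was below the expression limit, with 9 and 20 counts, and lay on the higher side (2.81-fold higher (1.22 to 7.01)). The tendon genes Thbs4, Tnc and Mkx were lower (3 of 9, with 1 higher), Mkx with 110 and 36 counts (2.42-fold lower (1.64 to 3.63)), whereas Tnmd, made by tendon cells, had 50.1 and 46 CPM.

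Among skin and soft tissue mesenchyme, the dermal fibroblast and adipocyte lists had more higher than lower calls, and the meningeal list had equal numbers. On the stromal scale, which dermal and meningeal genes help to set, the dermal list had 2 higher and 2 lower. The meningeal list there had 0 and 2 and the adipocyte list 3 and 1. The summed CPM of the dermal list was 2371 in the control and 2176 in the cKO. The dermal fibroblast list had 4 of 15 higher, Twist2 among them, and 1 lower, En1, with a median of 0.17 (-0.21 on the stromal scale, which these genes help to set). Dpt, a dermal matrix protein, had 81 and 180 counts (2.81-fold higher (2.15 to 3.7)), Dpp4 48 and 82 counts (2.16-fold higher (1.49 to 3.15)) and Prdm1 27 and 52 counts (2.44-fold higher (1.5 to 4.03)). Prdm1 is also on the list of epithelial identity regulators. Crabp1, a retinoid-binding protein of upper dermis, was 1.35-fold higher (1.07 to 1.7). The meningeal list had a median of 0.00, with Ptgds, a prostaglandin D synthase of the meninges, 2.5-fold higher (1.95 to 3.24) and Slc22a6 2.31-fold lower (1.17 to 4.88). Of 9 adipocyte genes 3 were higher and 0 lower: Cebpa had 27 and 279 counts (13.1-fold higher (8.79 to 20.2)), Cebpb 34 and 129 counts (4.8-fold higher (3.27 to 7.22)) and Cd36 45 and 107 counts (3.01-fold higher (2.1 to 4.36)). Pparg, the factor that defines fat cells, was below the expression limit with 13 and 25 counts; Cebpa and Cebpb are also expressed in epidermis.

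Vessel genes were slightly higher. Of 19 endothelial genes 2 reached 2-fold and 0 were lower, with a median of 0.55, and 17 of 19 lay above 0. On the stromal scale, which endothelial genes help to set, the median was 0.17, with 1 higher and 0 lower. Pecam1, a junction protein of all endothelium, had 103 and 176 CPM, Kdr, the main VEGF receptor, 88.4 and 136 CPM and Cdh5 247 and 278 CPM. Among their ligands, Figf (VEGF-D) was higher with 21 and 87 counts (5.24-fold higher (3.22 to 8.89)) and Angpt1, the ligand made by mural and mesenchymal cells, lower with 122 and 44 counts (2.19-fold lower (1.54 to 3.17)). Vegfa was close to equal at 78.3 and 99 CPM. Mural cell genes showed 2 of 12 higher, Rgs5 (2.15-fold higher (1.74 to 2.68)) and Kcnj8 (2.43-fold higher (1.84 to 3.24)), 1 lower, Des (3.47-fold lower (2.65 to 4.61)), and a median of 0.29 (-0.08 on the stromal scale, which they too help to set). Des is also on the skeletal muscle list.

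Signalling lists differed in their share of called genes. Over all measured genes 9.66% were higher and 6.78% lower by 2-fold. These shares were 8.33% and 25% in the hedgehog list, 9.68% and 9.68% in the BMP list and 16.7% and 0% in the Notch list. They were 5.56% and 5.56% in the FGF list, 0% and 4.76% in the TGF-beta list and 4.76% and 0% in the IGF list. In the hedgehog pathway 3 of 12 were lower and 1 higher: the ligand Ihh and the response genes Gli1 (290 and 110 counts; 2.08-fold lower (1.67 to 2.62)) and Hhip (123 and 42 counts; 2.32-fold lower (1.62 to 3.37)) were lower, and Ptch1 was 1.69-fold lower (1.43 to 2.02). In the BMP pathway 3 of 31 were lower, Bmp3, Bmp8a and Smad9, and 3 higher, Fst and Id4 among them. Fst, follistatin, an antagonist of activins and some BMPs, had 23 and 87 counts (4.78-fold higher (2.99 to 7.94)). The reporter gene Id3 (239 and 199.5 CPM) and the ligand Bmp4 (39.7 and 35.7 CPM) lay within 1.5-fold. In the TGF-beta pathway Tgfb1 alone of 21 genes was called, with 470 and 132 counts (2.82-fold lower (2.32 to 3.44)), while the receptor Tgfbr2 had 208 and 195 CPM.

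The Notch list had 3 of 18 higher, 0 lower and a median of 0.46. Its higher genes were the ligands Jag2 (84 and 170 counts; 2.56-fold higher (1.96 to 3.36)) and Dll1 (23 and 81 counts; 4.45-fold higher (2.77 to 7.42)) and the target Nrarp (67 and 231 counts; 4.36-fold higher (3.31 to 5.81)). Notch1, a receptor of many tissues including epidermis, was 1.99-fold higher (1.73 to 2.29). The FGF list had 1 of 18 higher, Fgf7 (19 and 36 counts; 2.4-fold higher (1.34 to 4.42)), and 1 lower, Fgf18, and the receptors Fgfr1 and Fgfr2 had 482 and 294 CPM and 235 and 220.4 CPM. Growth genes of the IGF axis and imprinted loci were close together, with 1 of 21 called (Igfbp7, higher): Igf2 had 7225 and 6179 CPM and H19, the noncoding RNA beside it, 9106 and 7127 CPM.

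Epidermal RNA was far more abundant in the cKO library. Genes of the suprabasal and cornified layers held 0.0038% of control counts and 2.62% of cKO counts, and 22 of 23 measured were higher, 0 lower, with a median of 7.09; only 2 of the 23 reached 5 CPM in the control. Basal layer genes held 0.0163% and 0.532%, with 11 of 12 higher and a median of 3.77. In the dTF-cKO library the same lists held 0.432% and 1.15%. Krt14, the basal keratin, had 20 and 3047 counts (5.59 and 1078 CPM) and Krt5, its partner, 86 and 5759 counts (24.1 and 2037 CPM). Trp63, the master factor of stratified epithelium, had 2 and 275 counts (174-fold higher (47.7 to 1443)), and Grhl3, which drives barrier formation, 0 and 330 counts (at least 139-fold higher). Periderm and simple keratins were higher in 9 of 9 cases, with Krt8 at 2.72-fold higher (1.95 to 3.83) and Krt4 at 66.3-fold higher (35.7 to 139). Of 23 desmosome and tight junction genes 19 were higher and 2, Cldn6 and Cldn7, lower; Dsp had 65 and 5538 counts (108-fold higher (84.4 to 139.8)). How much of any gene named above comes from epidermal cells was not tested; the Wnt ligands Wnt3, Wnt6 and Wnt10a, the laminin and collagen chains of hemidesmosomes, Itgb4, Pkp1 and Pkp3 are genes for which this bears on the value.

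The higher epidermal genes lay in runs along the genome. Taking only measured genes, 8 runs of 5 or more neighbours with the same call were found, all of them higher. The longest held 9 genes on chromosome 15 between 101676023 and 102032027, the type II keratin cluster from Krt6b to Krt18, with a median log2 difference of 5.67. The type I keratins Krt13 to Krt17 formed a run of 6 on chromosome 11 between 100117327 and 100261029, with a median of 4.20. The small proline-rich proteins and Ivl of the cornified envelope formed one of 5 on chromosome 3 between 92432582 and 92573735, with a median of 4.38, and Serpinb genes one of 7 on chromosome 1 between 106861173 and 107610484, with a median of 5.10.

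Skeletal muscle RNA was lower throughout. All 23 measured muscle genes were at least 2-fold lower, with a median of -2.34, and the list held 0.237% of control counts, 0.0418% of cKO counts and 0.00241% of dTF-cKO counts. Myh3, the embryonic myosin, had 1719 and 219 counts (6.21-fold lower (5.39 to 7.18)), and Mylpf, a fast myosin light chain, 518 and 53 counts (7.73-fold lower (5.82 to 10.5)). The myogenic factors Myod1 (40 and 2 counts; 15.8-fold lower (4.1 to 135)) and Myog (110 and 30 counts; 2.9-fold lower (1.92 to 4.5)) were lower as well. Cdh15, Mef2c, Thbs4 and Des, named above, are also made by muscle, and the part of muscle RNA in their values was not tested.

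**Figure D5:**
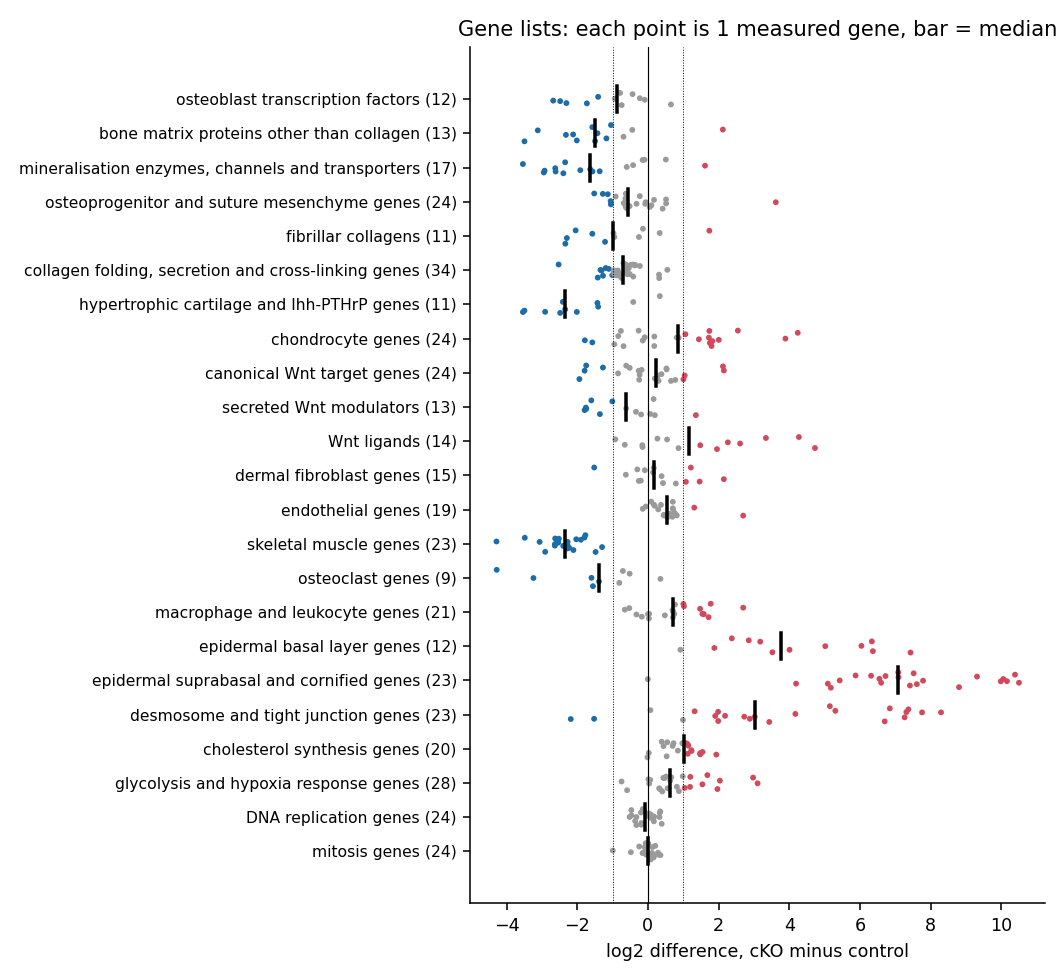
Each point is 1 measured gene at its log2 difference, cKO minus control, in 23 of the 68 lists, with the number of measured genes in brackets; the bar is the list's median, dotted lines mark 2-fold, red points are at least 2-fold higher and blue at least 2-fold lower. Muscle (median -2.34), hypertrophic (-2.34) and mineralisation genes (-1.63) lie to the left, epidermal genes to the right (7.09 and 3.77), and DNA replication and mitosis genes around 0.

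Cells of blood origin split by type. Osteoclast genes were lower in 5 of 9 cases and higher in 0, with a median of -1.39: Acp5, the tartrate-resistant phosphatase, had 365 and 97 counts (2.98-fold lower (2.37 to 3.76)), Ctsk, the collagen-degrading cathepsin, 1286 and 335 counts (3.04-fold lower (2.69 to 3.43)), and Atp6v0d2, a proton pump subunit needed for osteoclast fusion, 92 and 2 counts (36.4-fold lower (9.79 to 305)). Macrophage genes went the other way, with 8 of 21 higher, 0 lower and a median of 0.71. Mrc1, the mannose receptor of tissue macrophages, had 156 and 363 counts (2.94-fold higher (2.43 to 3.57)), Cd163 12 and 37 counts (3.9-fold higher (1.99 to 8.21)) and Lyve1, shared with lymphatic vessels, 31 and 169 counts (6.89-fold higher (4.68 to 10.5)). Csf1r, the receptor that macrophages need, was nearly equal at 104 and 106 CPM. Mast cell genes were higher in 3 of 4 cases: Cpa3 had 93 and 487 counts (6.62-fold higher (5.3 to 8.36)), Cma1 127 and 492 counts (4.9-fold higher (4.02 to 6)) and Tpsb2 109 and 254 counts (2.95-fold higher (2.35 to 3.72)). Globin and erythroid genes had 2 of 9 higher, Hba-x and Tfrc, and a median of -0.03; the pair Hba-a1 and Hba-a2 is near-identical and its split is uncertain.

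Genes of cell division were close to equal. None of 24 DNA replication genes (median -0.07) and none of 24 mitosis genes (median 0.01) reached 2-fold in either direction; Mcm2 had 107 and 97.3 CPM, Mki67 220.1 and 208 CPM and Top2a 191 and 192 CPM. Ribosomal protein genes had 4 of 86 higher, 4 lower and a median of 0.35, which turned to -0.03 on the stromal scale. All 4 lower members were the copies Rps12l1, Rps12l2, Rps3a2 and Rps3a3, of the kind whose values are uncertain. Nuclear genes of oxidative phosphorylation had 0 of 76 called and a median of 0.23 (-0.14 on the stromal scale). The 13 genes encoded in the mitochondrial genome lay on both sides: mt-Co1 (9243 and 8492 counts), mt-Cytb (5545 and 5371 counts) and mt-Nd1 (2973 and 3486 counts) were within 1.5-fold, while mt-Co2 (937 and 276 counts; 2.68-fold lower (2.34 to 3.08)), mt-Co3 (2.11-fold lower (1.9 to 2.33)), mt-Atp6 (2.01-fold lower (1.8 to 2.25)) and mt-Nd6 (47 and 2 counts; 18.6-fold lower (4.87 to 158)) were lower. The nuclear gene Lars2, with 6770 and 19979 counts, and Yam1, with 99273 and 196011 counts, took larger shares of the cKO library, 0.186% and 0.746% for Lars2 and 2.73% and 7.32% for Yam1. Both are outside the rule for naming genes and were named after their values were seen.

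Metabolic genes were mostly called on the higher side. Of 20 cholesterol synthesis genes 10 were higher by at least 2-fold and 0 lower; the median was 1.03. On the stromal scale the median was 0.65 and 4 were higher. Msmo1, a sterol oxidase of the pathway, had 57 and 135 counts (3-fold higher (2.18 to 4.16)) and Fdps 122 and 272 counts (2.82-fold higher (2.27 to 3.52)). Srebf2, the factor that controls the pathway, had 168 and 166 CPM. In fatty acid synthesis 2 of 13 were higher and 2 lower: Elovl1, an elongase for very long chains such as those of skin lipids, had 185 and 1098 counts (7.51-fold higher (6.42 to 8.82)), whereas Scd1 and Fads2, desaturases, were 3-fold lower (2.1 to 4.39) and 3.21-fold lower (2.36 to 4.43). Of 28 glycolysis and hypoxia genes 9 were higher and 0 lower. Slc2a1, the glucose carrier of erythrocytes, barriers and growing cells, had 285 and 887 counts (3.94-fold higher (3.44 to 4.51)), Egln3, an oxygen sensor induced by hypoxia, 99 and 327 counts (4.18-fold higher (3.33 to 5.28)) and Car12 20 and 150 counts (9.48-fold higher (5.93 to 16)). The core enzymes Gapdh (639.7 and 656 CPM) and Pkm (709 and 716 CPM) were nearly equal. These groups were higher in the library whose suprabasal and cornified epidermal genes held 2.62% of counts, against 0.0038% in the control, and the part of epidermal RNA in them was not tested.

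Stress genes were mixed. Heat shock genes had 3 of 15 higher: Hspb1, which is also abundant in epidermis, had 80 and 1437 counts (22.7-fold higher (18.1 to 28.8)), and the near-identical pair Hspa1a and Hspa1b 11 and 119 counts and 16 and 233 counts, while Hsp90ab1 (2038 and 2073 CPM) was equal. Immediate early genes, which respond to growth signals and to tissue handling, had 5 of 20 higher (Fos, Fosb, Junb, Zfp36 and Egr1) and 1 lower (Nr4a2), Fos with 45 and 247 counts (6.94-fold higher (5.04 to 9.76)) and Junb with 50 and 146 counts (3.69-fold higher (2.66 to 5.2)). In the integrated stress response 2 of 21 were higher and 5 lower. Slc7a11, the cystine carrier, was 4.27-fold higher (2.8 to 6.71) with 29 and 98 counts, and Cebpb, given above, was the other higher gene. Chac1, which degrades glutathione, was 17.7-fold lower (5.79 to 87.8) with 67 and 3 counts, Pycr1 and Aldh18a1, of proline synthesis, were 2.3-fold lower (1.81 to 2.95) and 2.05-fold lower (1.75 to 2.4), and Ddit3 was equal at 12.3 and 12.7 CPM. Of 16 p53 targets and apoptosis genes 3 were higher (Perp, Trp53inp1 and Pmaip1) and 1 lower (Bbc3), with Mdm2 at 33.3 and 32.9 CPM and Bax at 39.7 and 33.3 CPM.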

How the data were processed

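Gene expression was measured by sequencing polyA RNA of E15.5 calvarial mesenchyme in 3 libraries, of which the control and cKO libraries are compared here. Per the file headers, the deposited tables give 1 whole-number count per gene symbol; the build is mm10 per the submitters' processing notes, and no aligner, counter or annotation is named. Total counts were 3634819 (control), 2678457 (cKO) and 2905264 (dTF-cKO). Libraries were made with an Ion Total RNA-Seq kit, and the use of strand in counting is not given in the sources used here, so antisense and overlapping genes cannot be separated.

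From the counts, TMM factors (0.984, 1.06 and 0.963 in the same order) were computed with edgeR 4.0.16 in R 4.3.3, then CPM, and log2 CPM with a prior count of 2. Genes with a mean of at least 5 CPM over the 3 libraries were kept, and a gene was called at 2-fold. Intervals of ratios are exact conditional binomial (Clopper-Pearson) 95% intervals, and a library at 0 was set to 3 counts for a lower bound of the fold. With 1 library per genotype no model was fitted. The calculation of the intervals was checked on simulated counts with counting error alone. That simulation held no amplification and no variation between embryos, so it does not bear on either. Gene positions and biotypes came from GENCODE vM21 (11653 measured genes matched) and promoters from RefSeq GRCm38.p6 (8796 matched). There were 27 symbols turned into dates in the tables (19 of them measured), which cannot be read back and are named nowhere.

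Genes were named by a rule: Ctnnb1 and Twist2, the 15 highest and 15 lowest by log2 difference with an interval excluding 1, and from each of 68 lists up to 6 genes with the largest difference of at least 1, the 3 most abundant and the first 4 as listed, with all catenins and cadherins; some genes of the rule are not reported here. Predicted gene models and clone names were left out of the 15 highest and 15 lowest. The comparison, the rule and the lists were chosen with earlier results of these data known. Of 1319 listed genes 1122 were measured. Alternatives changed the scaling (library totals, DESeq2 1.42.0 size factors, totals without the most abundant genes, TMM without other-tissue genes, a stromal scale), the prior count, the expression limit and the size limit; those on biotype were added after the data were seen.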

Additional observations from a re-analysis of the deposited data

How the results depend on the processing

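Of 1172 higher and 822 lower genes, the counts stayed within 1.5 times under library totals (1325 and 700), DESeq2 1.42.0 size factors (1128 and 855), library totals that leave out 33 abundant genes (1165 and 1031), TMM without other-tissue genes (1184 and 815), prior counts of 0.5 (1232 and 857) and 10 (939 and 641), an expression limit over the 2 compared libraries (1117 and 873) and the added demand that the interval exclude 1 (1152 and 812). They did not under the stromal scale (795 and 1499), no expression limit (2149 and 2293 of 21206 genes), a limit of 20 CPM (675 and 325 of 7961), a size limit of 1.5-fold (2195 and 1602) or 3-fold (692 and 382), and, chosen after seeing the data, protein-coding genes alone (1108 and 428) or without pseudogenes (1165 and 473). The share of called genes that were higher was 58.8% as reported, 65.4% with library totals, 34.7% on the stromal scale, 48.4% with no expression limit and 72.1% for protein-coding genes. The median log2 difference of all genes was 0.06 as reported, 0.16 with library totals and -0.32 on the stromal scale. That scale shifts every gene by the same amount, so the 21 of 68 list medians whose sign it turned are by construction those between 0.00 and 0.36, the osteocyte median (0.05 to -0.33) among them. No paired analysis was possible because each genotype has 1 library. By mean level, the shares called higher and lower were 14.0% and 16.0% between 5 and 10 CPM, 8.70% and 3.65% between 100 and 200 CPM and 11.9% and 3.82% from 200 CPM; the part of depth in this was not tested.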

Other observations

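Pigment cell and nerve genes made up a small part of both libraries. Of 7 measured melanocyte genes 3 were higher and 0 lower: Pmel, a melanosome protein, had 16 and 155 counts (12.3-fold higher (7.31 to 22)), Tyrp1, an enzyme of melanin synthesis, 3 and 36 counts (15.2-fold higher (4.79 to 77)), and Dct 5 and 151 counts. Ednrb (26.3 and 48.1 CPM) and Kit (30.8 and 47 CPM), which other cells share, were within 2-fold. Among 11 genes of Schwann cells, nerve and brain 2 were higher and 4 lower. Tubb3 (145 and 35 counts; 3.28-fold lower (2.25 to 4.88)) and Dcx (48 and 12 counts; 3.16-fold lower (1.66 to 6.54)), of young neurons, were lower together with Fabp7, whereas Sox10, the factor of glia and pigment cells, had 16.5 and 17.7 CPM. Erbb3 (4.09-fold higher (3.13 to 5.41)), the neuregulin receptor of Schwann cells that epithelia also make, and Map2 (2.9-fold higher (2.17 to 3.92)) were higher.

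Hox genes, which mark the body axis behind the anterior head, were sparse: of 39 listed 3 reached the expression limit, and the family summed to 18 (control), 148 (cKO) and 202 (dTF-cKO) counts. Hoxd8 had 7 and 73 counts (13.2-fold higher (6.09 to 34)) and Hoxc13, of hair and nail, 1 and 13 counts (16.4-fold higher (2.47 to 699)). Whether the dissected regions differed between the libraries was not tested.

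Outside the lists and chosen after their values were seen, Sgms2, a sphingomyelin synthase of bone, had 1476 and 160 counts (7.29-fold lower (6.19 to 8.64)), Serpinf1, a secreted factor needed for normal bone mineral, 2936 and 768 counts (3.02-fold lower (2.79 to 3.28)), and Npnt, a matrix ligand of integrins, 1289 and 312 counts (3.27-fold lower (2.88 to 3.71)). Gpx3, the secreted glutathione peroxidase, was among the 10 genes with the largest gain in CPM, with 228 and 5634 counts (31.2-fold higher (27.4 to 35.8)). Ugt2a1, a glucuronosyltransferase of olfactory epithelium and among the 15 lowest genes listed above, had 103 and 2 counts (40.7-fold lower (11 to 341)).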
